A study of Mus musculus with 75 samples.

Results

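RelA with its transactivation domains removed was compared with no RelA at all, in mouse embryonic fibroblasts after 8 h of TNF. Libraries were chosen by construct and time from the labels and paired by the deposited set: 2 libraries of RelA-dTAD and 2 of empty vector (EV) at 8 h, with 2 of each at 0 h for the change over time, 8 of 75 libraries in all. The 4 groups were RelA-dTAD at 8 h, RelA-dTAD at 0 h, EV at 8 h and EV at 0 h. Cells given full-length RelA (RelA-WT), and the times of 0.5, 1 and 3 h of TNF, serve as further comparisons. Fibroblasts of every group came from C57BL/6 embryos with the genotype p53-/- crel-/- rela-/-, so p53, c-Rel and the cells' own RelA were missing from RelA-dTAD and EV cells alike. A pBABE-puro retrovirus carried the RelA-dTAD sequence or, for EV, no insert. Cells were held overnight in 0.5% serum and then given TNF at 10 ng/ml. The 75 libraries include no untreated cells of a later time, so a change over 8 h holds the effect of time as well as of TNF. The labels do not state which residues dTAD lacks, whether the cells were clones or pools, or whether the 2 replicates were separate cultures. The spread between replicates may therefore be technical. The p-values and standard errors take that spread from 40 libraries of the replicated constructs, of which these 8 are a part.

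NF-kB is a family of dimeric transcription factors, and RelA is its main activating member in the response of fibroblasts to TNF. RelA binds DNA at kB sites through its Rel homology domain, usually paired with p50, the product of Nfkb1, and it recruits co-activators through transactivation domains in its C-terminal part. In resting cells the dimer is held in the cytoplasm by IkB proteins, and TNF frees it by having IkB destroyed. Many genes of antigen presentation and antiviral defence carry kB sites beside elements for interferon regulatory factors, so 1 promoter can take input from both. A RelA without transactivation domains keeps the parts that bind DNA and p50.

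Polyadenylated RNA was read in 50-base single-end runs and deposited as read counts per gene in 2 tables, called set 1 and set 2 here, each with replicate 1 or 2 of the constructs. Library totals ran between 4663288 and 6847613 counts for set 1 and between 10440202 and 18557058 counts for set 2, so low genes are measured less precisely in set 1. The ribosomal gene Gm42418 took 0.00133% to 0.00714% of counts in set 1 and 0.923% to 1.34% in set 2. CPM, the unit of every level below, are counts scaled to library size with edgeR's TMM factors. A pair of CPM values gives set 1 and then set 2, and differences are on the log2 scale. Each standard error was derived from the difference and the F statistic of its quasi-likelihood test. Adjusted p-values came from edgeR's quasi-likelihood test with Benjamini-Hochberg adjustment over 13665 genes, with the set as a paired term, and a gene was called where its adjusted p was under 0.05. Fibroblast markers summed to 37921 to 38764 CPM in RelA-dTAD at 8 h and 34990 to 41936 CPM in EV at 8 h, so the markers of the labelled cell type were present in all 4 libraries. Macrophage markers summed to 4.16 to 7.01 CPM in RelA-dTAD and 6.31 to 8.02 CPM in EV, with Adgre1, Tyrobp and Fcgr1 at 0 in all 4 libraries. Sums of muscle markers, given below with Des, and of 3 other lists separated the groups at 8 h: endothelial markers at 194 to 216 CPM in RelA-dTAD and 159 to 178 CPM in EV, with Tie1 at 0, neural markers at 533 to 608 CPM in RelA-dTAD and 664 to 690 CPM in EV, with Sox10 at 0, and adipocyte markers at 17.9 to 20.1 CPM in RelA-dTAD and 16.7 to 17.1 CPM in EV, with Adipoq, Plin1 and Lep at 0. Their part in the results was not tested. In bulk RNA, fewer cells of a type and less RNA per cell cannot be told apart.

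The reads of Rela (chr19:5637483-5648130, mm10, plus strand) followed the labels. Rela stood at 3963 and 6677 CPM in RelA-dTAD at 8 h, against 30.8 and 25.3 CPM in EV at 8 h. At 0 h it stood at 1124 and 1786 CPM in RelA-dTAD, against 16.5 and 15.4 CPM in EV. All 4 RelA-dTAD libraries lay far above all 4 EV libraries, and the difference at 8 h was 7.61 ± 0.30 (adjusted p = 1.41e-12, edgeR). Reads of the retrovirus and of the chromosomal gene cannot be told apart in a count per gene, and counts over whole genes do not check the loss of Rel or Trp53. RelA-dTAD cells held more Rela RNA at 8 h than cells given full-length RelA (RelA-WT), by 1.68 (adjusted p = 2.71e-06, edgeR).

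At 8 h, 527 of the 13665 genes were higher in RelA-dTAD than in EV (3.86%) and 220 were lower (1.61%), 5.47% in either direction. Differences of more than 2-fold went mostly one way, with 208 genes higher and 27 lower. Of the 12 genes with the largest positive differences, Gbp5 and Tgtp1 belong to the interferon response list, Psmb8 and H2-Q4 to the MHC class I list and Cxcl9 to the chemokine list, and the others are Rela, Oas1g, Oas3, Slfn2, Slfn5, H2-Q6 and H2-Q7. The median over all genes tested was -0.01. Without the set term, 248 genes were higher and 20 lower, so the calls of lower genes rest on the pairing by set. Without the RelA-dTAD library of set 2 at 8 h the counts were 319 higher and 83 lower, without the EV library of set 2 at 8 h they were 338 and 132, and without the EV library of set 1 at 8 h 120 genes were lower.

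The promoters of genes with the largest differences are shown because both kinds of site were searched for in them: the kB motif, written as GGG, any 5 bases and CC, and the interferon-stimulated response element, written as TTTC, any 2 bases and TTTC, on both strands. Windows of 300 bases, 250 before and 50 after each RefSeq gene start (GRCm38.p6), were searched, and the 250 bases before the start are printed 5′ to 3′ on the strand of the gene. Of the 12 genes with the largest positive differences, taken among called genes with a symbol and at least 5 CPM in the higher group and Rela included, 8 had a kB match in the window. The promoter of Rela is not shown, since the introduced sequence does not lie behind it, and the next 3 genes in order of size were Cxcl9, Gbp5 and H2-Q6. Capitals mark kB matches, which overlap one another where a run is longer than the motif.
Cxcl9, chr5:92328080-92328329, minus strand: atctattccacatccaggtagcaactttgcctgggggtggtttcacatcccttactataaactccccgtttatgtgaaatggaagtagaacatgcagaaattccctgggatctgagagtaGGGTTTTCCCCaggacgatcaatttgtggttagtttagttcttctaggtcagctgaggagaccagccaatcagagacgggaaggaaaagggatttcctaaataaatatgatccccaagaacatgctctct
Gbp5, chr3:142496684-142496933, plus strand: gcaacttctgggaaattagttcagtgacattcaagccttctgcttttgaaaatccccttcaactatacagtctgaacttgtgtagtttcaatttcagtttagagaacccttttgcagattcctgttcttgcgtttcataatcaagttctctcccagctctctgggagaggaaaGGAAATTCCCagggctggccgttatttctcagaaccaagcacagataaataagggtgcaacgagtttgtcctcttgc
H2-Q6, chr17:35424600-35424849, plus strand: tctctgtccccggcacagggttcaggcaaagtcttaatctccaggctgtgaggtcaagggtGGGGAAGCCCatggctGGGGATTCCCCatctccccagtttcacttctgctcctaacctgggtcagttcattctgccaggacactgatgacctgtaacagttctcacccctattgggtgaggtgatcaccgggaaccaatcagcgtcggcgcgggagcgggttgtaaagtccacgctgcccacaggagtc

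A kB match was present for 293 of the 401 higher genes with a promoter entry (73.1%), 128 of 163 lower genes (78.5%) and 7567 of 10435 tested genes (72.5%). The share of the higher genes was thus close to that of all tested genes. A motif present for most tested genes tells groups of genes apart poorly, so these shares do not decide whether kB sites are more frequent in the higher genes. Over all 32851 promoter windows of the table, 50.8% held a match. The interferon element was searched for after the values were seen. It was present for 79 of the 401 higher genes (19.7%), 5 of 163 lower genes (3.07%) and 394 of 10435 tested genes (3.78%), and in 3.44% of all windows. By gene list, 22 of 32 interferon response genes with an entry held it (68.8%), 4 of 15 MHC class I genes (26.7%) and 0 of 14 genes of IkB feedback. Of 12 chemokine genes, 2 held it (16.7%). The kB motif was present for 22 (68.8%), 10 (66.7%), 11 (78.6%) and 8 (66.7%) genes of these lists, in the same order. A match is a description of the letters and says nothing of binding. Of the 12 leading genes, 5 held the element, shown here in 30-base windows with the match in capitals. Oas1g held 2 overlapping matches, of which the first is marked.
Gbp5, chr3:142496759-142496788, plus strand: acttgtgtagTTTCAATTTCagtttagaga
Oas1g, chr5:120887612-120887641, minus strand: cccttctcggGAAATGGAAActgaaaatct
Oas3, chr5:120777715-120777744, minus strand: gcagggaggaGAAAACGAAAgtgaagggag
Slfn5, chr11:82951937-82951966, plus strand: ccttcaaagtGAAAAAGAAAaaaaaaaaag
Tgtp1, chr11:48992304-48992333, minus strand: tccaggaatcGAAACTGAAAcctacctgac

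After Rela, the T cell chemokine gene Cxcl9 (chr5:92321347-92328079, minus strand) had the largest difference. Cxcl9 stood at 41.6 and 43.1 CPM in RelA-dTAD at 8 h, against 1.21 and 0.521 CPM in EV at 8 h, a difference of 5.83 ± 0.26 (adjusted p = 3.18e-18, edgeR). The EV values rest on 5 reads in each library, and the difference was 4.90 in set 1 and 5.92 in set 2, with no overlap between the groups. Gbp5, an interferon-induced guanylate-binding protein (chr3:142493978-142522344, plus strand), stood at 12.1 and 24.2 CPM in RelA-dTAD, against 0.728 and 0.208 CPM in EV (5.75 ± 0.54, adjusted p = 1.38e-07). Both Gbp5 values in RelA-dTAD lay above both in EV, in each set.

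Antiviral genes were among the 12 as well. Oas1g, of the oligoadenylate synthetases that sense double-stranded RNA, stood at 15.4 and 13.8 CPM in RelA-dTAD, against 0.971 and 0.834 CPM in EV (4.01 ± 0.35, adjusted p = 2.93e-10). Slfn2, a Schlafen gene of immune cell quiescence, stood at 55.4 and 71.1 CPM in RelA-dTAD, against 3.88 and 4.69 CPM in EV (3.89 ± 0.33, adjusted p = 7.63e-08). Psmb8, a catalytic subunit of the immunoproteasome that cuts peptides for class I, stood at 33.3 and 59.7 CPM in RelA-dTAD, against 3.40 and 6.36 CPM in EV (3.23 ± 0.35, adjusted p = 2.39e-06). In each of these genes the RelA-dTAD libraries lay above the EV libraries without overlap. Oas3 (6.87 and 6.42 CPM in RelA-dTAD, 0.243 and 0.521 CPM in EV), Slfn5 (12.5 and 19.4 CPM in RelA-dTAD, 0.728 and 1.46 CPM in EV) and the immunity-related GTPase gene Tgtp1 (11.4 and 8.27 CPM in RelA-dTAD, 0.728 and 1.15 CPM in EV) were called as well.

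The remaining leaders were 3 genes of the H2-Q group, which encode non-classical class I molecules. H2-Q4 stood at 43.3 and 114 CPM in RelA-dTAD, against 3.40 and 14.5 CPM in EV (3.04 ± 0.38, adjusted p = 1.76e-05). Within each set the RelA-dTAD library was far above the EV library, and without the set term the call was lost (adjusted p = 0.0984, edgeR). H2-Q6 was read 145 times in RelA-dTAD and 3 times in EV, a ratio of 33.3 with a 95% interval of 11.2 to 163, which covers counting error only. H2-Q7 stood at 1.46 and 10.3 CPM in RelA-dTAD, against 0.728 and 0.417 CPM in EV (3.85 ± 0.74, adjusted p = 0.00147). The calls of H2-Q6 and H2-Q7 were lost without the RelA-dTAD library of set 2 (adjusted p = 0.403 and 0.480, edgeR), without the EV library of set 2 (0.349 and 0.402) and without the set term (0.0999 and 0.170). Genes of the H2-Q, Gbp, Oas, Slfn and Tgtp families have close copies, and how reads that match several copies were counted is not given in the sources used here, so the share of each copy is uncertain.

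**Figure D1:**
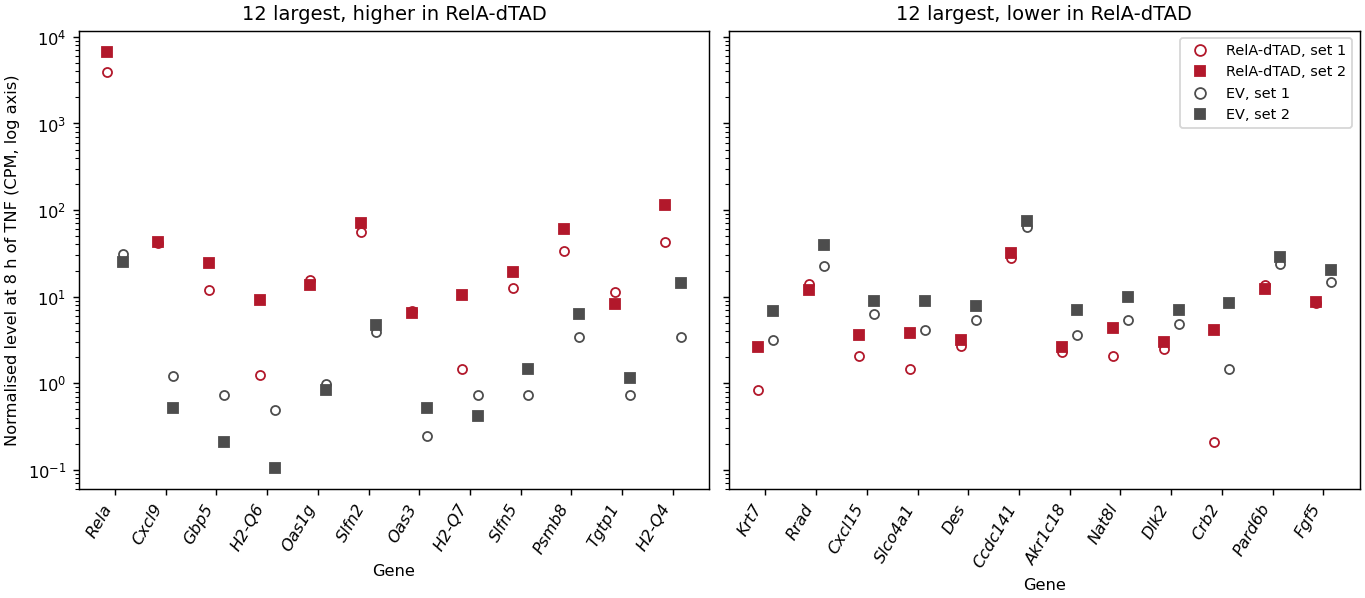
Level at 8 h (CPM, log axis) of the 12 genes with the largest positive and the 12 with the largest negative differences, Rela included, 1 point per library, RelA-dTAD left of EV in each gene. Cxcl9 sits at 41.6 and 43.1 CPM in RelA-dTAD and at 1.21 and 0.521 CPM in EV, while Crb2 overlaps between the groups across sets.

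As a group, 36 of the 40 measured genes of the interferon response list were higher at 8 h and 0 were lower, with a median of 1.42 (edgeR and DESeq2 gave the same counts, and 1 gene was lower at an unadjusted p under 0.05). The list median was 1.59 in set 1 and 1.36 in set 2 alone. Of all genes tested, 3.86% were higher and 1.61% lower. Gbp2 stood at 407 and 373 CPM in RelA-dTAD, against 70.1 and 79.5 CPM in EV (2.34 ± 0.21, adjusted p = 2.85e-07, edgeR). Of genes singled out after their values were seen, Ifit3, which binds viral RNA complexes, stood at 287 and 369 CPM in RelA-dTAD, against 43.0 and 85.2 CPM in EV (2.28 ± 0.33, adjusted p = 0.000113, edgeR). Transcription factor genes of this programme were also higher: Irf7 by 1.71 ± 0.25, Stat2 by 1.05 ± 0.18 and Irf1 by 1.00 ± 0.20, with adjusted p of 0.00298 or less by edgeR. The 4 members not called were Irf9 (0.33, adjusted p = 0.145), Socs3 (0.24, 0.509), Socs1 (-0.21, 0.666) and Irf2 (-0.39, 0.127). Socs1 and Socs3 encode inhibitors of cytokine receptor signalling, and Irf2 encodes a repressor of interferon genes. The count was 32 without the set term and 27 without the RelA-dTAD library of set 2.

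At 8 h and 0 h the interferon genes themselves were nearly unread. The 21 interferon ligand genes in the files, looked up after the values were seen, held 3 reads in all in RelA-dTAD at 8 h and 1 in EV at 8 h, with 5 and 2 reads at 0 h. Of the 21 genes, 0 had enough reads to be tested. Ifnb1 held 74 reads over the 40 libraries of the fit, against 1 in RelA-dTAD and 0 in EV at 8 h.

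Antigen presentation on MHC class I was higher in the same libraries, with 16 of 18 genes of that list higher and 0 lower. The list median was 1.60, where 3.86% of all genes were higher and 1.61% lower. Heavy chains, the light chain, peptide transporters and immunoproteasome subunits were among the 16. H2-K1, a classical heavy chain singled out after its values were seen, stood at 279 and 509 CPM in RelA-dTAD, against 65.0 and 110 CPM in EV (2.16 ± 0.23, adjusted p = 2.11e-06, edgeR). The light chain gene B2m stood at 995 and 1514 CPM in RelA-dTAD, against 492 and 669 CPM in EV (adjusted p = 3.03e-05, edgeR). For both genes the RelA-dTAD libraries lay above both EV libraries. Tap1, which carries peptides into the endoplasmic reticulum, was higher by 2.79 ± 0.27, and Nlrc5, the activator of class I genes, by 2.14 ± 0.28 (adjusted p of 7.43e-07 and 2.19e-05). Tapbp, the tapasin gene that joins class I to the transporter, differed by 1.16 ± 0.12, Psmb10 by 1.45 ± 0.15 and the proteasome activator gene Psme2 by 0.83 ± 0.10. The exceptions were Calr (0.07, adjusted p = 0.647) and Pdia3 (0.07, adjusted p = 0.597), general chaperones of the endoplasmic reticulum.

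Chemokine genes split more. Of 19 measured, 7 were higher and 1 lower, where 3.86% of all genes were higher and 1.61% lower. The median of 1.61 takes in 5 genes below 1 CPM in both groups that were not called. Cxcl10, like Cxcl9 a ligand of CXCR3, a chemokine receptor of T cells, stood at 179 and 309 CPM in RelA-dTAD, against 48.5 and 64.9 CPM in EV (2.09 ± 0.18, adjusted p = 9.12e-08, edgeR). Cxcl16 was higher by 1.91 ± 0.24. Ccl2, the main monocyte chemokine gene, picked after its values were seen, stood at 730 and 673 CPM in RelA-dTAD, against 219 and 140 CPM in EV (2.02 ± 0.23, adjusted p = 5.57e-06). The neutrophil chemokine genes Cxcl1 (0.91 ± 0.39, adjusted p = 0.234) and Cxcl5 (1.00 ± 0.47, adjusted p = 0.293) were not called. For Cxcl1 the RelA-dTAD values of 27.7 and 57.2 CPM overlapped the EV values of 14.1 and 30.7 CPM across sets. Cxcl15, a neutrophil chemokine gene of mouse lung, was lower, at 2.08 and 3.64 CPM in RelA-dTAD, against 6.31 and 8.86 CPM in EV (-1.33 ± 0.23, adjusted p = 0.000169). Its call was lost without the EV library of set 2 at 8 h (adjusted p = 0.0651, edgeR).

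In the list of adhesion, complement and acute phase genes, 4 of 15 were higher and 0 lower by edgeR and by DESeq2. The list median was 0.92, and over all genes 3.86% were higher and 1.61% lower. The 4 were the adhesion genes Vcam1, Sele and Selp, whose products let leukocytes stop on a vessel wall, and Ptx3, an acute phase gene. Without the RelA-dTAD library of set 2 at 8 h the count was 2 and the median 0.17, and Selp lost its call without that library (adjusted p = 0.493, edgeR) or the EV library of set 2 at 8 h (0.108). Vcam1 stood at 479 and 471 CPM in RelA-dTAD, against 193 and 153 CPM in EV (1.47 ± 0.17, adjusted p = 4.07e-06, edgeR). Sele, the E-selectin gene, stood at 39.3 and 77.0 CPM in RelA-dTAD, against 13.3 and 15.01 CPM in EV (adjusted p = 0.000136, edgeR). In both genes the groups did not overlap. Icam1 showed 12.7 and 42.3 CPM in RelA-dTAD and 7.77 and 16.2 CPM in EV, which overlap across sets, and was not called (1.24 ± 0.43, adjusted p = 0.121).

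The feedback genes of NF-kB itself gave few calls in number, but the list is short. Of the 15 genes for IkB inhibitors and other NF-kB feedback, 2 were higher and 0 lower, with a median of 0.09. Over all genes, 3.86% were higher and 1.61% lower. At an unadjusted p under 0.05, 6 of the 15 were higher and 1 lower, where 2224 of all 13665 genes passed in either direction. Nfkbia, which encodes IkB alpha and is the classical early target of RelA (chr12:55489411-55492647, minus strand), stood at 108 and 114 CPM in RelA-dTAD, against 90.8 and 84.4 CPM in EV. The groups did not overlap, but the difference of 0.36 ± 0.15 was not called (adjusted p = 0.229, edgeR). Tnfaip3, the ubiquitin-editing inhibitor A20, stood at 71.0 and 48.8 CPM in RelA-dTAD, against 31.8 and 25.1 CPM in EV (1.04 ± 0.24, adjusted p = 0.0117). That call was lost without the RelA-dTAD library of set 1 (0.0562), the EV library of set 1 (0.0694), the EV library of set 2 (0.123) or the set term (0.0989). Tnip3, a partner of A20, was read 48 times in RelA-dTAD and 3 times in EV, a ratio of 11.0 with a 95% counting interval of 3.55 to 55.3, and lost its call without either library of set 2 (0.103 without RelA-dTAD and 0.0888 without EV).

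The other feedback members lay between -0.27 (Cyld, adjusted p = 0.0769) and 0.66 (Nfkbid, adjusted p = 0.674) and were not called. Bcl3, an IkB-like co-regulator of p50 and p52, differed by 0.53 ± 0.19 (adjusted p = 0.116), and Nfkbie, which encodes IkB epsilon, by -0.18 ± 0.37 (adjusted p = 0.878). Nfkbib, Nfkbiz, Tnip1, Tnip2, Otulin, Zc3h12a, N4bp1 and Rcan1 ranged from -0.23 to 0.42.

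Among the subunits, Rela was the gene that was higher. Nfkb2, the gene of p52, stood at 176 and 191 CPM in RelA-dTAD, against 210 and 230 CPM in EV (-0.26 ± 0.08, adjusted p = 0.0474, edgeR). That call sits at the threshold: it was lost without any of the 4 libraries at 8 h (adjusted p of 0.0767 to 0.305), without either RelA-dTAD library at 0 h (0.0557 and 0.0570) and without the set term (0.272). Nfkb1, the gene of p50, stood at 175 and 184 CPM in RelA-dTAD, against 140 and 147 CPM in EV, and missed the threshold (0.33 ± 0.10, adjusted p = 0.0615). Rel (-0.05 ± 0.13, adjusted p = 0.911) and Relb (0.04 ± 0.18, adjusted p = 0.950) did not pass the test.

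In the TNF receptor list, 4 of 21 genes were higher and 2 lower, with a median of 0.04. Of all genes, 3.86% were higher and 1.61% lower. Birc3, the ubiquitin ligase cIAP2, was higher by 0.57 ± 0.13 (adjusted p = 0.00452, edgeR) and Fth1, ferritin heavy chain, by 0.37 ± 0.08 (adjusted p = 0.00125). Birc3 lost its call without the RelA-dTAD library (0.0523) or the EV library (0.0558) of set 1 at 8 h, and Fth1 without the set term (0.340). Traf3, an adaptor that restrains the alternative NF-kB pathway, was lower, at 50.6 and 47.6 CPM in RelA-dTAD, against 101 and 88.9 CPM in EV (-0.96 ± 0.11, adjusted p = 9.36e-08).

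In the list of cell death genes, 5 of 23 were higher and 1 lower, with a median of 0.06. Shares over all genes were 3.86% higher and 1.61% lower. Mlkl, the pore-forming effector of necroptosis, stood at 63.3 and 71.7 CPM in RelA-dTAD, against 21.8 and 27.4 CPM in EV (1.43 ± 0.11, adjusted p = 4.78e-11, edgeR). Gsdmd, the pore-forming effector of pyroptosis, stood at 18.9 and 21.4 CPM in RelA-dTAD, against 5.34 and 5.63 CPM in EV (1.89 ± 0.25, adjusted p = 4.51e-06). Casp4, the caspase that cuts gasdermin D, differed by 1.71 ± 0.17 and the death receptor gene Fas by 1.96 ± 0.34 (adjusted p of 5.49e-09 and 0.000429). Fas lost its call without the EV library of set 2 at 8 h (adjusted p = 0.0601).

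Matrix proteases and inhibitors gave 5 higher genes and 1 lower of 21, with a median of 0.25. Shares over all genes were 3.86% higher and 1.61% lower. Adamts4, an aggrecan-cutting protease, stood at 45.6 and 48.4 CPM in RelA-dTAD, against 24.5 and 22.0 CPM in EV (1.05 ± 0.15, adjusted p = 1.08e-05, edgeR). Mmp3 and Mmp13, picked after their values were seen, were higher by 2.37 ± 0.36 and 3.02 ± 0.48 (adjusted p of 0.000176 and 0.000172). Of the 24 cytokine and growth factor genes, 2 were higher and 1 lower, with a median of 0.04. Il6, called higher, stood at 6.24 and 6.15 CPM in RelA-dTAD, against 1.70 and 1.35 CPM in EV (2.07 ± 0.38, adjusted p = 0.000308, edgeR). Ptges, which makes prostaglandin E, was higher by 2.11 ± 0.28 (adjusted p = 2.80e-06), while Ptgs2, the cyclooxygenase upstream of it, differed by -0.36 ± 0.15 (adjusted p = 0.202).

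**Figure D2:**
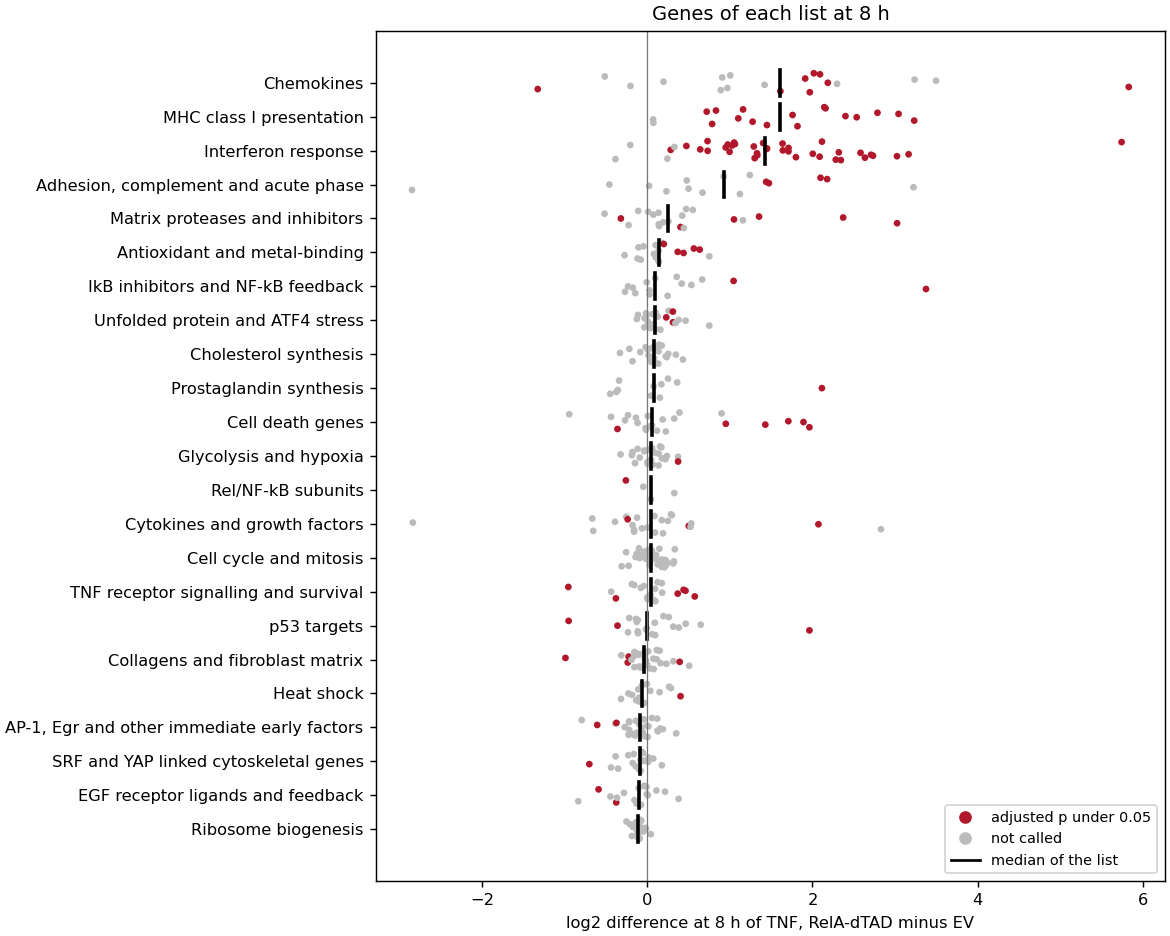
Difference at 8 h (log2, RelA-dTAD minus EV) of every measured gene of each list, with called genes in red and a bar at the median of the list. The chemokine, MHC class I and interferon lists sit to the right with medians of 1.61, 1.60 and 1.42, and lists of growth, cell cycle and metabolism sit near 0. Rela, at 7.61, is left off the axis.

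Genes lower in RelA-dTAD differed by less. By the same choice of 12, the most negative difference was -1.47 ± 0.35, in the keratin gene Krt7. Rrad, a Ras-related GTPase that restrains calcium channels (chr8:104628066-104631321, minus strand), stood at 13.9 and 11.8 CPM in RelA-dTAD, against 22.8 and 39.2 CPM in EV (-1.40 ± 0.17, adjusted p = 9.55e-07, edgeR). Ccdc141 (chr2:77009902-77170636, minus strand) stood at 28.1 and 32.3 CPM in RelA-dTAD, against 64.1 and 74.8 CPM in EV (-1.21 ± 0.09, adjusted p = 3.66e-11). Both genes separated the groups without overlap and kept their calls when any 1 of the 8 libraries was left out. Fgf5, a growth factor gene, stood at 8.53 and 8.67 CPM in RelA-dTAD, against 14.8 and 20.2 CPM in EV (-1.09 ± 0.22, adjusted p = 0.00125). Pard6b, of cell polarity, stood at 13.7 and 12.2 CPM in RelA-dTAD, against 23.8 and 28.4 CPM in EV (-1.10 ± 0.18, adjusted p = 5.76e-05). Fgf5 lost its call without either library of set 2 (0.142 without RelA-dTAD and 0.187 without EV), Pard6b without the RelA-dTAD library of set 2 (0.298), and both without the set term (0.269 and 0.444).

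Slco4a1, Des, Akr1c18, Nat8l, Dlk2 and Crb2 lay between -1.29 and -1.11 with less than 10 CPM in each library. Of the 12 lower genes, 3 were called without the set term and 2, Rrad and Ccdc141, in every fit that left out 1 library, against 9 and 10 of the 12 higher genes. Des is also a muscle marker, and the muscle markers summed to 3.33 to 4.10 CPM in RelA-dTAD and 5.34 to 8.34 CPM in EV, with Myod1 and Myog at 0. The part of such cells in the result was not tested.

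Lists of EGF receptor and serum response genes gave few calls in number, all of them lower genes. Over all genes, 3.86% were higher and 1.61% lower. Among genes of EGF receptor ligands and their feedback, 0 of 17 were higher and 2 lower, a larger share lower than over all genes. At an unadjusted p under 0.05, 0 of them were higher and 5 lower. Hbegf, a ligand of the receptor, stood at 385 and 442 CPM in RelA-dTAD, against 612 and 634 CPM in EV (-0.59 ± 0.13, adjusted p = 0.00530, edgeR), a call lost without the EV library of set 1 (0.0585) and without the set term (0.0989). Dusp6, a phosphatase of the feedback, was the other called gene and lost its call without the set term (0.297), the RelA-dTAD library of set 1 (0.240) or either EV library at 8 h (0.0923 and 0.187). Immediate early factors gave 0 higher and 2 lower of 28 with a median of -0.09, and genes linked to SRF and YAP gave 0 and 1 of 18. At an unadjusted p under 0.05 the early factors had 1 gene higher and 4 lower, and the SRF and YAP genes 0 and 2. The calls of Ier5 and Egr3 among the early factors were both lost without the set term (adjusted p of 0.177 and 0.198, edgeR), without the RelA-dTAD library of set 1 at 8 h (0.152 and 0.150) and without the EV library of set 2 at 8 h (0.226 and 0.400). Cnn1, the SRF-linked gene, lost its call without the set term (0.104), the RelA-dTAD library of set 2 (0.467) or either EV library at 8 h (0.158 and 0.0922). Eln, the elastin gene, was lower by the largest amount in the list of collagens and matrix, at 26.2 and 72.9 CPM in RelA-dTAD, against 64.8 and 133 CPM in EV (-0.99 ± 0.16, adjusted p = 0.000122). Its values overlap across sets, and without the set term the call was lost (adjusted p = 0.890). In the lists of cell cycle (40 genes), cholesterol synthesis (24) and ribosome biogenesis (22), 0 genes were called by edgeR in either direction, and their medians were 0.04, 0.08 and -0.11. At an unadjusted p under 0.05 the cell cycle list had 4 genes higher and 2 lower, cholesterol synthesis 2 and 0, and ribosome biogenesis 0 and 2, where 2224 of all 13665 genes passed that threshold in either direction.

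The same contrast at 0 h used other libraries. There, 162 genes were higher in RelA-dTAD (1.19%) and 8 lower (0.0585%), 1.24% in either direction. Of the 527 genes higher at 8 h, 150 were also higher at 0 h, which is 28.5% of the 8 h genes and 92.6% of the 0 h genes, and 495 (93.9%) had a positive difference at 0 h, against 53.8% of all genes tested. Of the 220 lower genes, 5 (2.27%) were also lower at 0 h, and 158 (71.8%) had a negative difference there, against 46.2% of all genes. The interferon response list already had 33 of 40 genes higher at 0 h with a median of 1.25, and the MHC class I list 14 of 18 with a median of 1.06, where the median over all genes was 0.01. Without the EV library of set 1 at 0 h those counts were 14 and 9, and without the RelA-dTAD library of set 2 at 0 h they were 20 and 8. Without the set term they were 25 and 5.

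Levels at 0 h show how early the genes stood apart. Oas1g was at 7.87 and 6.62 CPM in RelA-dTAD at 0 h, against 0.272 and 0.475 CPM in EV at 0 h (4.11, adjusted p = 3.62e-08, edgeR). Slfn2 was at 14.2 and 17.8 CPM in RelA-dTAD, against 0.544 and 2.06 CPM in EV (3.45, adjusted p = 8.32e-05). Cxcl9 was at 3.55 and 2.02 CPM in RelA-dTAD, against 0.680 and 0.396 CPM in EV (2.26, adjusted p = 0.00140). Each of these separated the groups before TNF was added. Il6, Sele, Fas and Gsdmd were called at 8 h and had adjusted p of 1.00, 1.00, 0.716 and 0.625 at 0 h. A p above the threshold does not show that their levels were alike at 0 h. At 0 h Il6 was read 8 times in RelA-dTAD and 3 times in EV. The ratio of 2.06 had a counting interval of 0.496 to 12.1. The test of the difference of the 8 h changes, given below, did not call any of these genes.

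Between the ends of the time course, the interferon list had 35 of 40 genes higher at 0.5 h, 24 at 1 h and 37 at 3 h, with medians of 1.37, 1.07 and 1.37. Over all genes, 1.23%, 1.00% and 1.87% were higher at those times, and 1.49%, 1.24% and 2.22% were called in either direction. The MHC class I list had 13, 15 and 16 of 18 genes higher, with medians of 0.94, 0.88 and 1.08. The list of NF-kB feedback had 0, 0 and 5 of 15 genes higher.

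**Figure D3:**
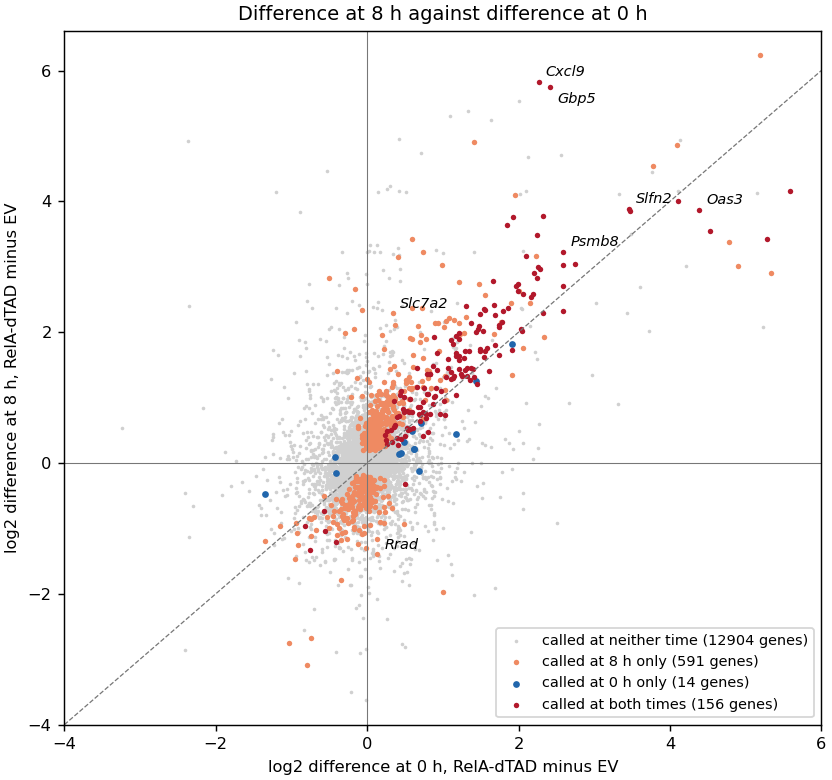
Difference of each gene at 8 h (vertical) against its difference at 0 h (horizontal), both log2 RelA-dTAD minus EV and from separate libraries; the dashed line marks equal differences. Of the called genes, 156 were called at both times, 591 at 8 h only and 14 at 0 h only, and Cxcl9 and Gbp5 sit far above the line. The test of the difference of the 8 h changes, given below, called Cxcl9 but not Gbp5. Rela and 2 genes beyond the axes, neither of them called, are not drawn.

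The change over 8 h was then compared between the 2 kinds of cell. In RelA-dTAD cells 4349 genes were higher at 8 h than at 0 h (31.8%) and 4321 lower (31.6%), 63.4% in all, and in EV cells 4356 were higher (31.9%) and 4200 lower (30.7%), 62.6% in all. These changes share no library, and 3829 of the higher genes were common to both, 88.0% of those of RelA-dTAD and 87.9% of those of EV. For the lower genes 3624 were common, 83.9% and 86.3%. All 28 immediate early factors measured and all 22 genes of ribosome biogenesis were higher at 8 h in RelA-dTAD and in EV, and 24 of 40 cell cycle genes were lower in each. The IkB feedback list had 11 of 15 genes higher and 1 lower in each, with medians of 0.88 in RelA-dTAD and 1.00 in EV.

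The class I list differed in its counts. Of 18 genes, 11 were higher and 1 lower at 8 h than at 0 h in RelA-dTAD cells (median 0.47), against 1 higher and 2 lower in EV cells (median -0.04). In the interferon list 19 of 40 were higher and 2 lower in RelA-dTAD (median 0.47), against 11 higher and 2 lower in EV (median 0.14). Of all genes tested, 31.8% were higher and 31.6% lower in RelA-dTAD, and 31.9% and 30.7% in EV. A gene-by-gene edgeR test of the difference of the changes called 0 members of either list. At an unadjusted p under 0.05, 7 class I genes had a larger change in RelA-dTAD and 0 a smaller one, and 5 interferon response genes had a larger and 1 a smaller one. Over all genes that test had 932 genes at an unadjusted p under 0.05.

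The difference of the changes was called for 13 genes (0.0951% of those tested), 7 larger in RelA-dTAD (0.0512%) and 6 smaller (0.0439%). Without the set term 1 gene was called larger and 0 smaller, and DESeq2 called 16 and 5. Slc7a2, a carrier of arginine and other cationic amino acids (chr8:40862396-40922308, plus strand), stood at 183 and 293 CPM in RelA-dTAD at 8 h and 77.6 and 105 CPM at 0 h, a change of 1.38 ± 0.17. In EV it stood at 43.4 and 53.4 CPM at 8 h and 66.1 and 79.4 CPM at 0 h, a change of -0.58 ± 0.19. It rose in RelA-dTAD cells and fell in EV cells, and the changes differed by 1.96 ± 0.26 (adjusted p = 0.00101, edgeR), a call held in every fit tried.

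Cxcl9 changed by 4.11 ± 0.18 in RelA-dTAD and by 0.54 ± 0.65 in EV, where it was read few times, a difference of 3.57 ± 0.76 (adjusted p = 0.0388, edgeR). Its call was lost in 5 of the 8 fits that left out 1 library (adjusted p of 0.0738 to 0.391), namely those without the RelA-dTAD library of set 2 or the EV library of set 2 at 8 h, or without the RelA-dTAD library of set 2 or either EV library at 0 h. Samhd1, which breaks down nucleotides and restricts retroviruses, stood at 282 and 262 CPM in RelA-dTAD at 8 h and 165 and 141 CPM at 0 h. In EV it stood at 125 and 127 CPM at 8 h and 115 and 108 CPM at 0 h, and the changes differed by 0.65 ± 0.10 (adjusted p = 0.000503). Cd47, whose product keeps macrophages from engulfing a cell, stood at 227 and 204 CPM in RelA-dTAD at 8 h and 225 and 207 CPM at 0 h, while in EV it fell to 147 and 119 CPM at 8 h, against 217 and 191 CPM at 0 h (0.62 ± 0.09, adjusted p = 0.000503). Samhd1 and Cd47 lost their calls without the set term (adjusted p of 0.716 and 1.00) but held them when any 1 library was left out.

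Of the genes whose change was smaller in RelA-dTAD, Rrad changed by 0.21 ± 0.19 there and by 1.75 ± 0.18 in EV (difference -1.53 ± 0.26, adjusted p = 0.00345, edgeR). Traf3 changed by 0.31 ± 0.11 in RelA-dTAD and 1.23 ± 0.11 in EV, and Ccdc141 by 0.73 ± 0.10 and 1.53 ± 0.10. All 3 genes rose in EV, and by more than in RelA-dTAD. The calls of these 3 genes were lost in 3 of the 8 fits that left out 1 library, among them those without the RelA-dTAD library of set 2 at 8 h (adjusted p of 0.238, 0.0738 and 0.122) or at 0 h (0.202, 0.121 and 0.152), and, for Rrad, without the EV library of set 2 at 8 h (0.166), or, for Traf3 and Ccdc141, without the EV library of set 2 at 0 h (0.0707 each).

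**Figure D4:**
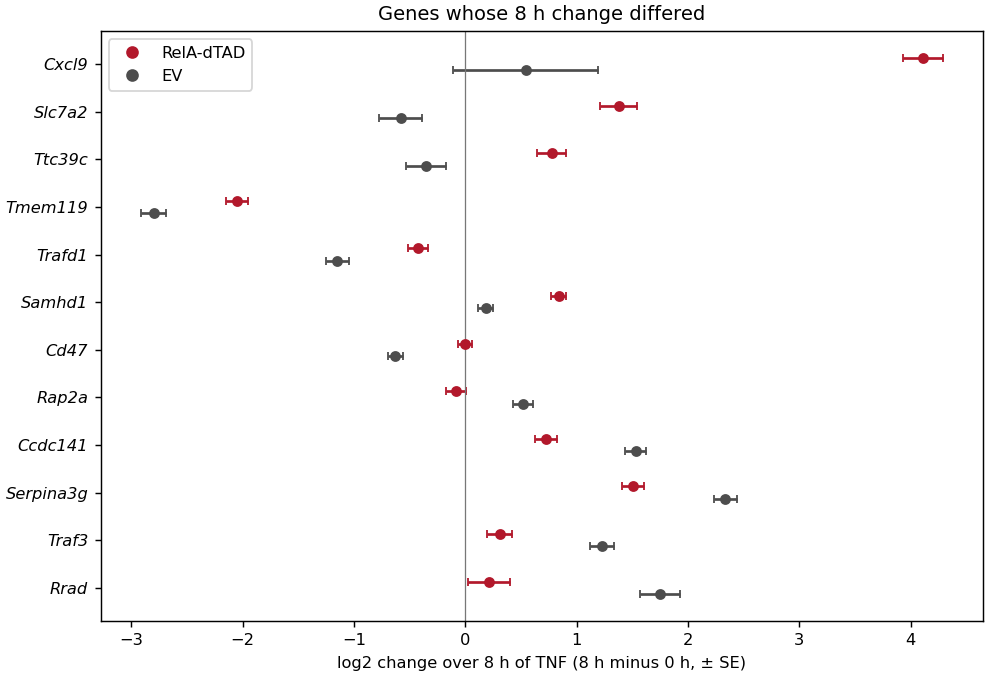
Change from 0 h to 8 h of TNF (log2 ± SE) in RelA-dTAD and in EV, RelA-dTAD above EV in each row, for the 12 named genes whose change differed. Slc7a2 sits at 1.38 in RelA-dTAD and -0.58 in EV, on opposite sides of 0, and Rrad sits at 0.21 in RelA-dTAD and 1.75 in EV.

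Set against full-length RelA at 8 h, RelA-dTAD gave lower levels for most of these genes. The RelA-dTAD level was lower than in RelA-WT for 33 of 40 interferon response genes, all 18 class I genes, 15 of 19 chemokine genes and 10 of 15 feedback genes, where 19.1% of all genes tested were lower and 41.2% were called in either direction. Cxcl9 stood at 41.6 and 43.1 CPM in RelA-dTAD, against 230 and 188 CPM in RelA-WT (-2.27, adjusted p = 3.62e-18, edgeR). Vcam1 stood at 479 and 471 CPM in RelA-dTAD, against 2397 and 1835 CPM in RelA-WT (-2.15, adjusted p = 7.06e-10). For Nfkbia the values were 108 and 114 CPM in RelA-dTAD and 450 and 369 CPM in RelA-WT (-1.87, adjusted p = 3.94e-10). In these genes RelA-dTAD lay between EV and RelA-WT.

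Some genes went otherwise. Rrad and Traf3 lay below both other constructs at 8 h. Rrad stood at 13.9 and 11.8 CPM in RelA-dTAD, 22.8 and 39.2 CPM in EV and 34.3 and 37.3 CPM in RelA-WT. Traf3 stood at 50.6 and 47.6 CPM in RelA-dTAD, 101 and 88.9 CPM in EV and 124 and 122 CPM in RelA-WT. Oas1g stood at 15.4 and 13.8 CPM in RelA-dTAD, against 17.5 and 15.1 CPM in RelA-WT (-0.15, adjusted p = 0.544, edgeR), and Slfn2 at 55.4 and 71.1 CPM in RelA-dTAD, against 79.4 and 74.0 CPM in RelA-WT (-0.26, adjusted p = 0.344). A p above the threshold does not show that these levels were alike. Sele was higher in RelA-dTAD, at 39.3 and 77.0 CPM, against 19.8 and 15.7 CPM in RelA-WT (1.85, adjusted p = 3.01e-05). Ccdc141 stood at 28.1 and 32.3 CPM in RelA-dTAD, against 32.0 and 39.7 CPM in RelA-WT (-0.26, adjusted p = 0.0335), both far below the 64.1 and 74.8 CPM of EV. Hbegf lay nearer to EV, at 385 and 442 CPM in RelA-dTAD, against 37.3 and 34.6 CPM in RelA-WT (3.55, adjusted p = 1.17e-14), and 26 of 28 immediate early factors were higher in RelA-dTAD than in RelA-WT, where 22.1% of all genes were.

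**Figure D5:**
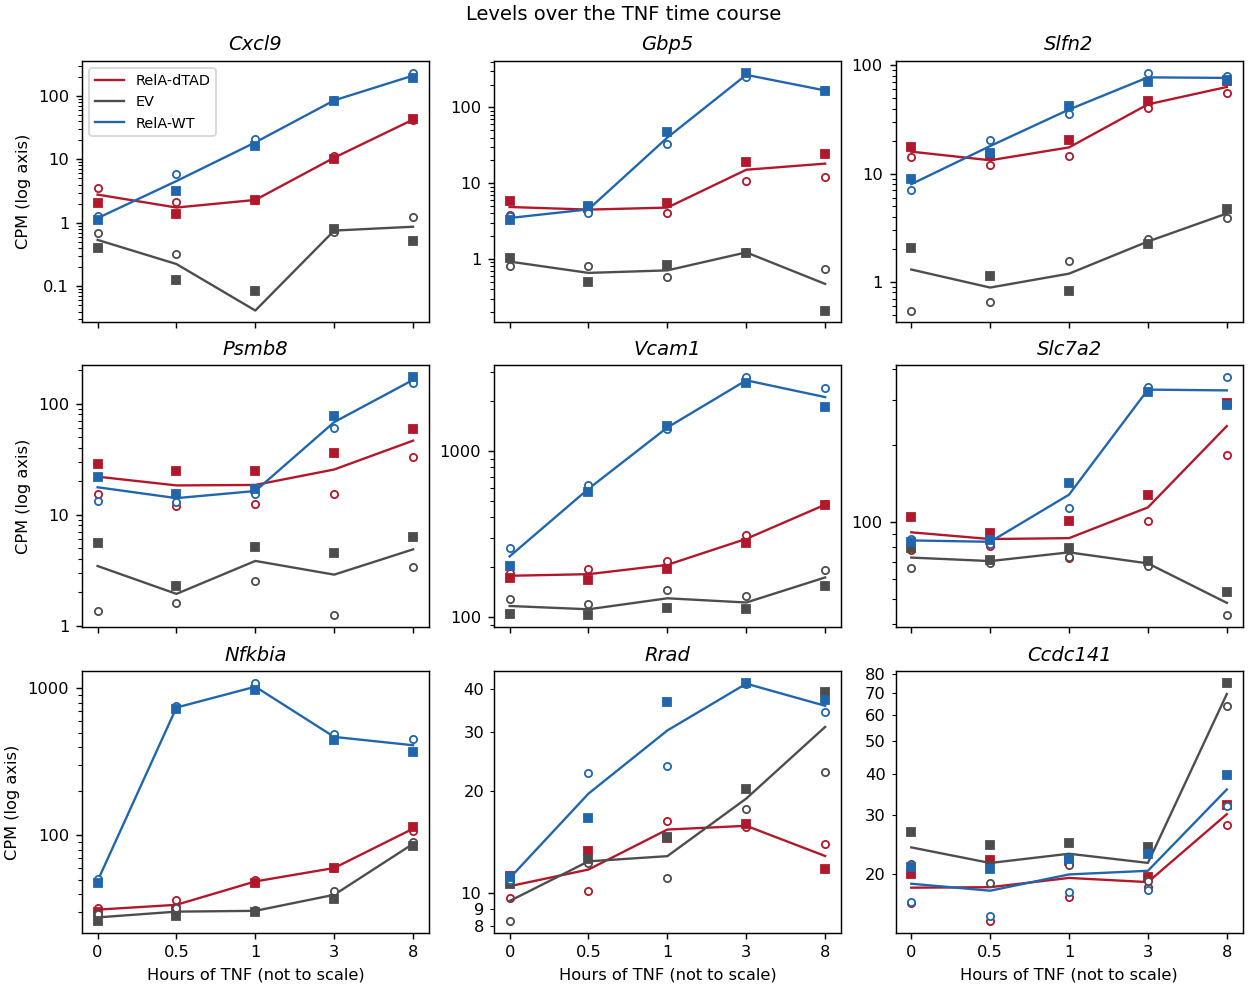
Levels (CPM, log axes) over 0, 0.5, 1, 3 and 8 h of TNF in RelA-dTAD, EV and RelA-WT; lines join means, open circles are set 1 and filled squares set 2. Cxcl9, Gbp5 and Vcam1 lie between EV and RelA-WT at 8 h, Nfkbia at 8 h averages 111 CPM in RelA-dTAD and 87.6 CPM in EV, and 1 Cxcl9 value at 0 (EV, set 1, 1 h) cannot be drawn on a log axis.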

How the data were processed

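RNA-seq read counts per gene were deposited by the authors as 2 tables of raw counts. Per the submitters' processing notes the tools were cutadapt 1.9.1, STAR, featureCounts 1.5.0 and DESeq2 with the mm10 build, with no role or strand setting given. Groups and sets came from the labels and column names. Counts of 40 libraries of the replicated constructs were fitted in R 4.3.3 with edgeR 4.0.16: filterByExpr left 13665 of 45706 genes, TMM scaling was used, and quasi-likelihood tests with Benjamini-Hochberg adjustment followed, with set as a paired term and 19 residual degrees of freedom. RelA-WT gave levels and a contrast at 8 h, and the remaining constructs only their spread. Deviations of same-numbered libraries correlated in all 6 pairs checked (r of 0.447 to 0.620), and the pairing comes from the deposited sets. Members, gene lists and tests were chosen with earlier results of these data known. Named genes were the NF-kB subunits, feedback genes and Trp53; the 12 largest called differences in each direction at 8 h, alike in sign in both sets and with a mean of at least 5 CPM in the higher group; up to 3 called members of each list by adjusted p; and up to 8 genes each way whose changes differed. Genes named beyond that rule were chosen after their values were seen. Alternatives were no set term, RLE factors, DESeq2 1.42.0, no filter, other library selections and leaving out each library. The scripts were tested on simulated data. Ratios of low reads have exact 95% intervals for counting error only.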

Additional observations from a re-analysis of the deposited data

Results flagged for a closer look

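The 8 h change differed between RelA-dTAD and EV cells for 13 genes, by a test of the difference of the changes (edgeR's quasi-likelihood test, adjusted p under 0.05). The log2 change in RelA-dTAD minus that in EV was 3.57 for Cxcl9, 1.96 for Slc7a2, 1.13 for Ttc39c, 0.75 for Tmem119, 0.73 for Trafd1, 0.65 for Samhd1 and 0.62 for Cd47. It was -0.60 for Rap2a, -0.80 for Ccdc141, -0.82 for the non-coding gene Gm23935, -0.83 for the protease inhibitor gene Serpina3g, -0.92 for Traf3 and -1.53 for Rrad. Gm23935 was read 0 or 1 times in each of the set 1 libraries compared, so its value rests on set 2 alone. Of the 13, Slc7a2 was called without the set term, and Cd47, Samhd1 and Slc7a2 were called in every fit that left out 1 of the 8 libraries.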

How the results depend on the processing

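Without the replicate block (no term for the set), 248 genes were higher and 20 lower at 8 h, 87 and 1 at 0 h, and 1 and 0 differed in their 8 h change (388 genes at an unadjusted p under 0.05, edgeR). With the 8 libraries alone, 118 genes were lower at 8 h, 3 at 0 h and 2 had a smaller change. Of the named genes called at 8 h, 13 then lost their calls and 62 kept them, and of the called changes 8 were lost and 5 kept. Without a filter on low counts, 38 genes were lower at 0 h, and 98 and 36 differed in their change. DESeq2 called 16 larger changes, and all 75 libraries gave 12. Leaving out 1 library gave 319 to 528 higher and 83 to 201 lower genes at 8 h, 77 to 164 and 1 to 13 at 0 h, and 3 to 20 larger and 0 to 7 smaller changes. At 8 h the lowest counts came without the RelA-dTAD library of set 2. At 0 h 77 genes were higher without the EV library of set 1, with 106 and 91 without either RelA-dTAD library at 0 h, and lower genes numbered 13 without the RelA-dTAD library of set 1 at 8 h, 1 and 4 without those of set 1 and set 2 at 0 h, and 2 and 3 without the EV libraries of set 1 and set 2 at 0 h. For changes, 20 were larger without the RelA-dTAD library of set 1 at 8 h, and 3 without the RelA-dTAD or the EV library of set 2 at 0 h. Smaller changes numbered 2 without the RelA-dTAD library of set 2 at 8 h, 0 without it at 0 h and 1 without the EV library of set 2 at 0 h. The difference for Gm23935 ranged from -3.80 to 1.66 and turned positive without the RelA-dTAD (1.28) or EV library of set 2 at 0 h. Gm23935 was read 0 or 1 times in each of the set 1 libraries compared and 526 to 1830 times in those of set 2. Its call thus rests on set 2 alone, and DESeq2 did not call it (adjusted p = 0.9996). Why the sets differ in these reads was not tested. Counts of the change over 8 h within each kind of cell moved by less than 1.5 times. With 2 libraries a group, set 1 at lower depth and no record of separate cultures, small differences and genes of few reads are the least certain.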

Other observations

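Families of interferon-induced genes, grouped by symbol after their values were seen, were higher at 8 h in RelA-dTAD than in EV for 6 of 9 measured Gbp genes (median 2.83), 7 of 8 Oas genes (2.34), 5 of 5 Slfn genes (2.35), 6 of 6 immunity-related GTPase genes (2.18) and 6 of 6 Ifit genes (1.74), where 3.86% of all genes were. At 0 h the counts were 6 Gbp, 6 Oas, 5 Slfn, 6 GTPase and 3 Ifit genes. Close copies in these families share sequence, so the members are not independent of one another.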
